A study of Mus musculus with 8 samples.

Results

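The genes described here are the PD-1 ligands and other genes of the B7/CD28 checkpoint system, the surface molecules through which B cells and T cells deliver co-stimulatory and inhibitory signals to each other. They are 10 named genes of 22180 measured: the ligand genes Cd274, Pdcd1lg2, Cd80, Cd86, Icosl and Cd276, and the receptor genes Pdcd1, Ctla4, Btla and Lag3. All 10 were found, each with 1 probe set (the group of array probes that reports 1 transcript). They were chosen by symbol with the difference between the genotypes already known. Their values are therefore given as a description, without p-values, and support no statement about the checkpoint system as a whole.

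RNA was taken from B-1a cells, B lymphocytes that live mainly in the peritoneal and pleural cavities and renew themselves there. The cells were FACS-sorted from peritoneal washes of mice aged 5 weeks. KO mice were PTIPflox/flox, with both copies of the PTIP gene Paxip1 flanked by loxP sites, and carried 1 copy of a Cre allele active in B lineage cells. WT mice were PTIP+/+ and carried 1 copy of the same Cre allele. The 29 KO and 22 WT mice were divided into 4 pools per genotype, with 1 Affymetrix array per pool. The sources used here do not give the size of each pool or the sorting gates.

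PD-L1, the product of Cd274, and PD-L2, the product of Pdcd1lg2, bind the inhibitory receptor PD-1 on T cells and dampen T cell receptor signalling. CD80 and CD86 bind the co-stimulatory receptor CD28 and, more tightly, the inhibitory receptor CTLA-4, and CD80 also binds PD-L1 on the same cell. Among mouse B cells, PD-L2 is known as a surface marker of a subset of peritoneal B-1 cells and of memory B cells. Interferon-gamma is a known inducer of PD-L1, and interleukin-4, through STAT6, of PD-L2.

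The promoter windows of both PD-1 ligand genes are shown because the 2 genes neighbour each other and both had lower values in KO. Each is the 300 bases of RefSeq's annotation of GRCm38.p6, plus strand, running from 250 bases before to 50 bases after an annotated start. The window of Cd274 lies at chr19:29367188-29367487 and that of Pdcd1lg2 at chr19:29410669-29410968. Capitals mark motif matches.
Cd274: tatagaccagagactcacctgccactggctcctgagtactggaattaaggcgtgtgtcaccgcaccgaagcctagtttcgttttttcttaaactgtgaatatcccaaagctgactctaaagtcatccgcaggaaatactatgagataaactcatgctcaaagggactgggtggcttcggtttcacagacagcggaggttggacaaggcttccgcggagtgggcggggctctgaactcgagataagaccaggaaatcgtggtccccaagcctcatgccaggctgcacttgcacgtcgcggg
Pdcd1lg2: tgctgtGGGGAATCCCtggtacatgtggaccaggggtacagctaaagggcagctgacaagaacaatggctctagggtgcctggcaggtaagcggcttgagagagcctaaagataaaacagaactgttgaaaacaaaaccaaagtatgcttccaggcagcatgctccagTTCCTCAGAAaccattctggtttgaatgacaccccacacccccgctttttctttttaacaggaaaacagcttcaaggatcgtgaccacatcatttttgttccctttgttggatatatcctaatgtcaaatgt

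In the Pdcd1lg2 window a match to the STAT6 motif (TTC and GAA separated by 4 bases) began 82 bases before the start, with the letters TTCCTCAGAA, and a match to the NF-kB motif began 244 bases before it, with the letters GGGGAATCCC. Both matches read on either strand. The Cd274 window held no match to these 2 motifs, to the gamma-activated site (TTC and GAA separated by 3 bases) or to the interferon-stimulated response element core (TTTC and TTTC separated by 2 bases), each searched on both strands and free to overlap. Of 32851 promoter windows of the same length, 6.95% held the STAT6 motif, 8.46% the NF-kB motif, 8.30% the gamma-activated site and 3.44% the response element core. Windows were found for 8 of the 10 genes, and the other match, to the NF-kB motif, lay in Icosl. A match describes letters and is not a measured site.

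Before the checkpoint genes, the deleted gene was checked. Paxip1 stood at 4.66, 4.48, 4.79 and 3.58 on the log2 scale in KO pools 1 to 4, against 6.87, 7.13, 7.16 and 7.03 in WT pools 1 to 4, a difference of -2.67 (SE 0.22). B cell identity genes were high in both genotypes: the mean of 9 B and B-1a cell markers lay between 9.70 and 9.73 in KO pools and between 9.74 and 9.84 in WT pools, and limma called 0 of the 9, with 1 at an unadjusted p under 0.05. That marker, Spn, which encodes CD43, stood at 6.51, 6.48, 5.75 and 6.02 in KO pools 1 to 4, against 6.58, 6.75, 6.67 and 6.84 in WT pools 1 to 4, with no overlap. Its difference of -0.52 (SE 0.16) became -0.86 with the T cell marker mean added to the model (adjusted p = 0.0257 in limma) and -0.83 without KO pools 1 and 2 (adjusted p = 0.0162), and it was called in both. Here a gene is called when its adjusted p is under 0.05 in limma's fit over all 22180 genes. In that fit 3.59% of genes were called, 1.49% higher and 2.10% lower in KO. T cell markers were also present, were mostly higher in KO and were uneven between pools. Their mean over 15 genes was 7.13, 6.90, 5.15 and 5.62 in KO pools 1 to 4, against 5.36, 5.50, 4.78 and 4.57 in WT pools 1 to 4. Limma called 0 of the 15 T cell markers, 10 had an unadjusted p under 0.05, and 7 were called with pools of the same number as a block. Because these are bulk samples, fewer cells of a type and less RNA per cell cannot be told apart.

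Both PD-1 ligand genes were lower in KO, and they were the 2 called checkpoint genes of 10. Of all genes, 3.59% were called, and since this contrast was known when the 10 genes were chosen, nothing is read from their count. The KO and WT values did not overlap for 5 genes, of which Cd274, Pdcd1lg2 and Icosl were lower and Cd80 and Ctla4 higher in KO, where 10.5% of all genes had no overlap (5.09% lower and 5.41% higher in KO). Differences were negative for 7 genes and positive for 3, with a median of -0.20 against 0.02 over all genes.

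Cd274, which encodes PD-L1, stood at 6.37, 6.43, 6.92 and 6.44 in KO pools 1 to 4, against 7.17, 7.53, 7.27 and 7.50 in WT pools 1 to 4. Every KO pool lay below every WT pool, with KO pool 3 nearest to the WT range. The means were 6.54 ± 0.25 in KO and 7.37 ± 0.18 in WT (SD, n = 4 pools each), a difference of -0.83 (SE 0.13), or 1.77-fold lower in KO.

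Pdcd1lg2, which encodes PD-L2, stood at 6.74, 6.54, 6.70 and 6.89 in KO pools 1 to 4, against 7.41, 7.36, 7.71 and 7.94 in WT pools 1 to 4. The groups again did not overlap, and the KO pools were closer together than the WT pools. The means were 6.71 ± 0.14 in KO and 7.60 ± 0.27 in WT (SD, n = 4 pools each), a difference of -0.89 (SE 0.13), or 1.85-fold lower in KO. KO pool 3, the highest KO pool for Cd274, was not the highest for Pdcd1lg2.

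Omitting any 1 pool left both ligand genes called, with differences from -0.95 to -0.77 for Cd274 and from -0.97 to -0.78 for Pdcd1lg2. Both calls were lost in 3 alternatives. With the T cell marker mean added to the model the differences were -0.62 for Cd274 and -0.71 for Pdcd1lg2, and with KO pools 1 and 2 left out they were -0.69 and -0.81. The calls were also lost without moderation of the variance, which leaves the differences as they were. Macrophages, which express both ligands, were checked by their markers. The mean of 12 macrophage markers lay between 4.59 and 4.81 in KO pools and between 4.59 and 5.19 in WT pools. WT pool 1 was the highest, and WT pools 2 to 4 lay at 4.76, 4.84 and 4.59. Differences were negative for 7 markers and positive for 5, and limma called Cd68 lower. At an unadjusted p under 0.05 there were 3 markers, Cd68, Adgre1 and Mrc1, all lower in KO. The positive differences reached 0.16, for C1qa, and Lyz2 and C1qb differed by -0.10 and -0.09. Cd68 stood at 7.40, 7.51, 7.67 and 7.94 in KO pools and 8.27, 8.06, 8.31 and 8.12 in WT pools. Its call was lost in 8 of 17 alternatives. Adgre1, an adhesion receptor gene used as a macrophage marker, stood at 4.27 in KO and 5.04 in WT and was not called, at a difference of -0.76. It was called with the replicate block (adjusted p = 0.0405 in limma) and with the T cell marker mean added to the model, where its difference was -1.22 (adjusted p = 0.0412) and both ligand genes lost their calls. Mrc1, the mannose receptor gene, differed by -0.85 (SE 0.29) and was not called. Its WT pool 2 stood at 6.88, against 5.56, 5.18 and 5.76 in WT pools 1, 3 and 4. Dendritic cell markers averaged 3.80 to 3.89 in KO pools and 3.72 to 3.80 in WT pools, with 0 of 8 called by limma (4 at an unadjusted p under 0.05). The part of these cells in the ligand differences was not tested.

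**Figure D1:**
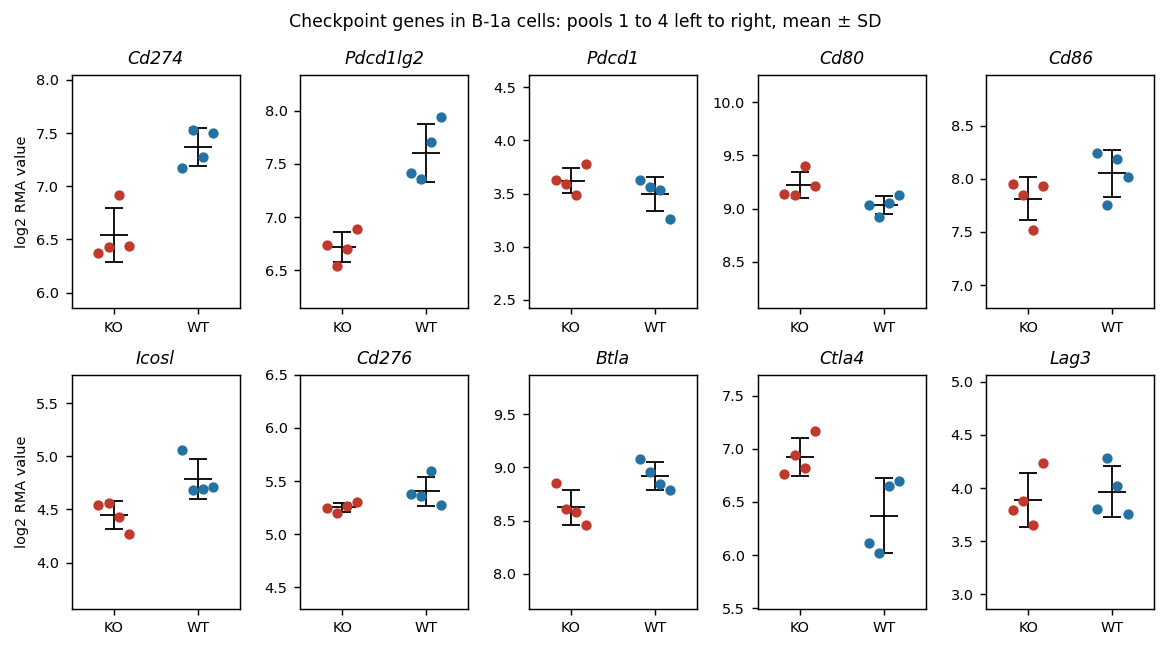
Log2 RMA values of the 10 checkpoint genes in 4 KO pools (red, left) and 4 WT pools (blue, right), with the mean and SD in black; every panel spans the same height on the log2 scale. Cd274 and Pdcd1lg2 show every KO pool below every WT pool, with KO pool 3 of Cd274 nearest to its WT range. Pdcd1 and Lag3 show overlapping groups.

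**Figure D2:**
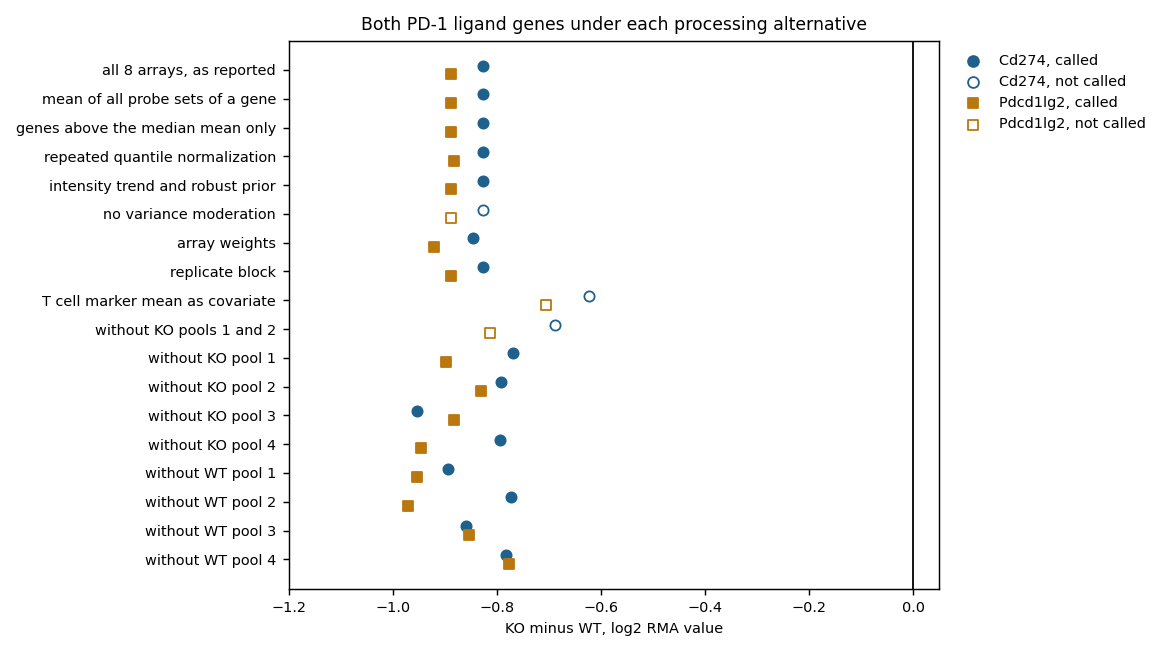
Difference of KO minus WT on the log2 scale for Cd274 (circles) and Pdcd1lg2 (squares) in the fit reported and under each processing alternative, filled where the gene was called and open where it was not. The differences stay negative throughout, and both symbols are open in 3 alternatives.

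The ligands of CD28 and CTLA-4 differed less. Cd80 stood at 9.14, 9.13, 9.40 and 9.21 in KO pools 1 to 4, against 9.03, 8.92, 9.05 and 9.13 in WT pools 1 to 4. The lowest KO and the highest WT pool nearly coincided, and the difference was 0.19 (SE 0.09), not called. Cd86 stood at 7.95, 7.85, 7.52 and 7.93 in KO pools, against 8.24, 7.75, 8.19 and 8.02 in WT pools. Its groups overlapped, with a difference of -0.24 (SE 0.13).

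Icosl encodes the ligand of the co-stimulatory receptor ICOS, through which B cells support helper T cells. It stood at 4.54, 4.56, 4.43 and 4.27 in KO pools 1 to 4, against 5.06, 4.68, 4.69 and 4.71 in WT pools 1 to 4. All KO pools were below all WT pools, and WT pool 1 stood above the other WT pools. The difference of -0.34 (SE 0.11) was not called. Cd276, which encodes the B7 family member B7-H3, averaged 5.25 ± 0.04 in KO and 5.41 ± 0.14 in WT (SD, n = 4 pools each). Its groups overlapped through KO pool 4 at 5.30 and WT pool 4 at 5.28, with a difference of -0.15 (SE 0.09).

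Of the receptor genes, Ctla4 had the largest difference and the direction opposite to the PD-1 ligands. CTLA-4 competes with CD28 for CD80 and CD86 and can remove them from the surface of other cells. Ctla4 stood at 6.76, 6.94, 6.82 and 7.17 in KO pools 1 to 4, against 6.11, 6.02, 6.65 and 6.70 in WT pools 1 to 4. Every KO pool was above every WT pool, but the WT pools fell into a lower pair and a pair close to the KO range. The means were 6.92 ± 0.18 in KO and 6.37 ± 0.36 in WT (SD, n = 4 pools each), a difference of 0.55 (SE 0.16) that was not called in the fit reported or under any of 17 alternatives.

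Btla, whose product is an inhibitory receptor of B and T cells that binds HVEM, stood at 8.85, 8.61, 8.58 and 8.46 in KO pools, against 9.08, 8.96, 8.84 and 8.79 in WT pools. KO pool 1 lay inside the WT range, and the difference was -0.29 (SE 0.10), not called. HVEM itself, the product of Tnfrsf14, averaged 5.36 in KO and 5.46 in WT, with overlapping groups.

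Pdcd1, which encodes PD-1, stood at 3.63, 3.59, 3.49 and 3.78 in KO pools, against 3.63, 3.56, 3.53 and 3.26 in WT pools. Lag3, whose product binds MHC class II, stood at 3.79, 3.88, 3.65 and 4.24 in KO pools, against 3.80, 4.28, 4.02 and 3.76 in WT pools. Both genes overlapped between the genotypes, with differences of 0.13 (SE 0.10) and -0.07 (SE 0.15). Their values lay near the median of all probe sets, 3.68 to 3.74 on the 8 arrays, where RMA values flatten out and a difference is understated.

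Ctla4, Pdcd1 and Lag3 are also genes of T cells, and their order over the KO pools differed from that of the T cell markers. The T cell marker mean was highest in KO pools 1 and 2, whereas Ctla4, Pdcd1 and Lag3 were each highest among the KO pools in pool 4. In WT, Ctla4 was higher in pools 3 and 4, the pools with the lower T cell marker means. Pdcd1 was higher in WT pools 1 and 2, the pools with the higher T cell marker means, though WT pools 2 and 3 were close, at 3.56 and 3.53. Lag3 was highest in WT pool 2, as was the T cell marker mean. The order of pools for Pdcd1 and Lag3, both near the array median, carries little weight. Btla, also a receptor gene of T cells, was highest in pools 1 and 2 of each genotype. It stood there at 8.85 and 8.61 in KO and at 9.08 and 8.96 in WT. Those pools had the higher T cell marker means of their genotype. Cd28, the co-stimulatory receptor gene of T cells, stood at 5.84, 5.20, 4.21 and 5.01 in KO pools, against 4.68, 4.67, 4.28 and 4.20 in WT pools. Icos was likewise highest in KO pools 1 and 2 (6.15 and 5.58), and Cd96, a receptor gene of T and NK cells, stood at 6.81 and 5.99 there and at 3.85 and 4.93 in KO pools 3 and 4. Neither Cd28, Icos nor Cd96 was called. With the T cell marker mean added to the model the difference of Cd28 was -0.10 in place of 0.61, that of Icos -0.17 in place of 0.53, that of Pdcd1 0.058 in place of 0.13, and that of Ctla4 0.77 in place of 0.55. In the same model the difference of Btla was -0.46 in place of -0.29, and that of Lag3 -0.11 in place of -0.07. The part of T cells in the values of these receptor genes was not tested.

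**Figure D3:**
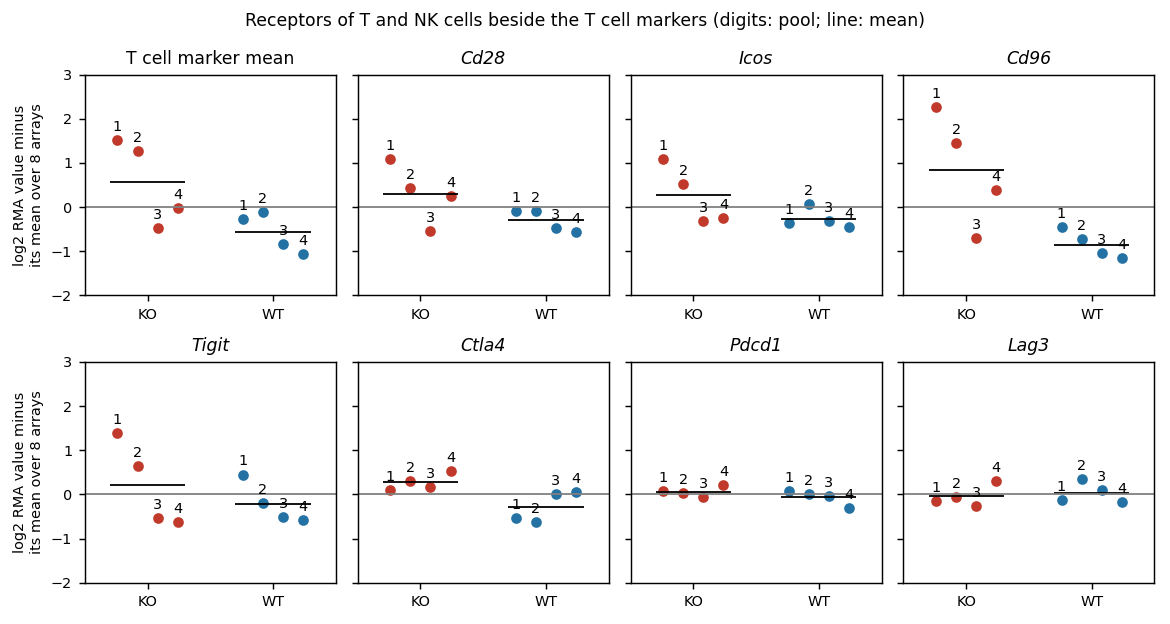
Deviation of each pool from the mean over 8 arrays, on the log2 scale, for the mean of 15 T cell markers and for 7 receptor genes, with KO pools in red on the left and WT pools in blue on the right; digits number the pools and lines are group means. Cd28, Icos, Cd96 and Tigit are highest in KO pool 1, as is the T cell marker mean, and Ctla4, Pdcd1 and Lag3 are highest among KO pools in pool 4.

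Further members of the B7, CD28 and butyrophilin-like families showed no call in any direction: limma called 0 of 11 measured genes, with 3 at an unadjusted p under 0.05. One of them, Cd28, was called in 1 alternative, without KO pool 3. The family had 8 positive and 3 negative differences, with a median of 0.11. Vsir, which encodes the inhibitory B7 family member VISTA, averaged 6.33 ± 0.15 in KO and 5.96 ± 0.32 in WT, and Rgmb, whose product binds PD-L2, averaged 5.83 ± 0.19 in KO and 5.53 ± 0.14 in WT (SD, n = 4 pools each). Their differences of 0.37 (SE 0.15) and 0.31 (SE 0.11) had adjusted p = 0.258 and 0.203 in limma.

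Among 23 other receptor and ligand genes of lymphocytes, limma called 3 lower and 0 higher in KO, where 3.59% of all genes were called. Differences were positive for 13 and negative for 10, with a median of 0.02, and 9 had an unadjusted p under 0.05. Cd96 and Cd226 had positive differences of 1.69 and 1.41, not called in the fit reported. Both were called higher with the replicate block and without KO pool 3, where the list held 5 calls. The 3 genes called lower in the fit reported encode surface proteins with inhibitory ligand or receptor functions. That description also fits other members of the list. Cd200, whose product restrains myeloid cells through the CD200 receptor, stood at 5.98, 6.32, 6.00 and 6.32 in KO pools, against 7.10, 7.40, 7.49 and 7.74 in WT pools. It fell by 1.28 (SE 0.14, adjusted p = 0.000558 in limma) and was lower in 4 of 4 KO pools than in any WT pool. Ceacam1, an adhesion molecule with inhibitory motifs, stood at 7.62, 7.77, 7.87 and 7.90 in KO pools, against 8.67, 8.78, 8.62 and 8.79 in WT pools. It fell by 0.92 (SE 0.09, adjusted p = 0.000253 in limma). Sirpa, whose product is the receptor of CD47 and is best known from myeloid cells, fell by 0.64 (SE 0.11, adjusted p = 0.00920 in limma). It averaged 6.60 ± 0.17 in KO and 7.24 ± 0.16 in WT (SD, n = 4 pools each). The calls of Cd200 and Ceacam1 held under all 17 alternatives, while that of Sirpa was lost in 3, at up to adjusted p = 0.133 in limma (0.00345 at the lowest). Cd47 itself averaged 10.3 in KO and 10.5 in WT and was not called. Its groups did not overlap, and it was called lower in 2 alternatives.

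Of 18 measured genes of the pathways that induce PD-1 ligands, limma called 1 higher and 2 lower in KO, where 3.59% of all genes were called. The median difference was 0.01, and 9 had an unadjusted p under 0.05. KO and WT values did not overlap for 8 of them, where 10.5% of all genes had no overlap. Ifngr1, the ligand-binding chain of the interferon-gamma receptor, rose by 0.60 (SE 0.13, adjusted p = 0.0268 in limma), with 8.69, 8.70, 8.12 and 8.34 in KO pools, against 7.83, 7.91, 7.91 and 7.79 in WT pools. The 2 highest pools were KO pools 1 and 2, and the call was lost without either of them, without any 1 WT pool, and in 3 other alternatives. With the T cell marker mean added to the model its difference was 0.32 (adjusted p = 0.265, range over its alternatives 0.00685 to 0.265). Ciita, the transactivator of MHC class II genes, fell by 0.73 (SE 0.10, adjusted p = 0.00291 in limma) and Stat2, a transducer of type I interferon signals, by 0.62 (SE 0.11, adjusted p = 0.0100). The call of Ciita held under all 17 alternatives and that of Stat2 was lost in 3. Gbp3, an interferon-induced GTPase gene, averaged 7.62 ± 0.29 in KO and 8.11 ± 0.04 in WT (SD, n = 4 pools each) and was not called. The groups of Gbp3 did not overlap, and it was called lower in 4 alternatives. The kinase genes Jak1 and Jak2 and the interleukin-4 receptor gene Il4ra were not called, at differences of 0.22, 0.25 and 0.29. Stat6 averaged 8.15 in KO and 8.13 in WT.

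Signalling genes of PD-1, BTLA and CTLA-4 gave 0 calls in limma among 13 measured, with 7 at an unadjusted p under 0.05. The phosphatase genes nearest to the threshold were Ptpn11, which encodes SHP-2, at 7.16 in KO and 6.80 in WT, and Inpp5d, which encodes SHIP1, at 9.25 in KO and 8.94 in WT. Their adjusted p in limma was 0.0596 and 0.0646, and each was called in 2 alternatives. Genes that govern the trafficking and turnover of PD-L1 and CTLA-4 gave 0 calls in limma among 14, with 2 at an unadjusted p under 0.05. Cmtm6, whose product keeps PD-L1 at the cell surface, averaged 8.79 in KO and 8.78 in WT. Lrba, whose product protects CTLA-4 from degradation, averaged 7.06 ± 0.18 in KO and 7.45 ± 0.06 in WT (SD, n = 4 pools each), with adjusted p = 0.0533 in limma and a call in 4 alternatives.

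Of 6 genes reported together with PD-L2 in B-1 or memory B cells, 2 fell and 0 rose. Zbtb32, a transcriptional repressor gene, stood at 7.50, 7.84, 8.27 and 7.65 in KO pools, against 8.71, 8.91, 9.03 and 9.04 in WT pools, and fell by 1.11 (SE 0.15, adjusted p = 0.00256 in limma). KO pool 3 was the highest KO pool for Zbtb32, as it was for Cd274. Fcrl5, an Fc receptor-like gene, stood at 7.42, 7.58, 7.28 and 7.21 in KO pools, against 8.88, 8.92, 8.35 and 8.90 in WT pools, and fell by 1.39 (SE 0.14, adjusted p = 0.000285). Nt5e, which encodes CD73, averaged 4.42 ± 0.86 in KO and 4.47 ± 0.24 in WT (SD, n = 4 pools each), with KO pool 1 the highest of all pools. Prdm1 and Spi1 were not called, at differences of 0.19 and -0.29, and Bhlhe41 averaged 9.06 in KO and 9.08 in WT. Both falls were known from earlier results on these data when the list was written and are not independent evidence.

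**Figure D4:**
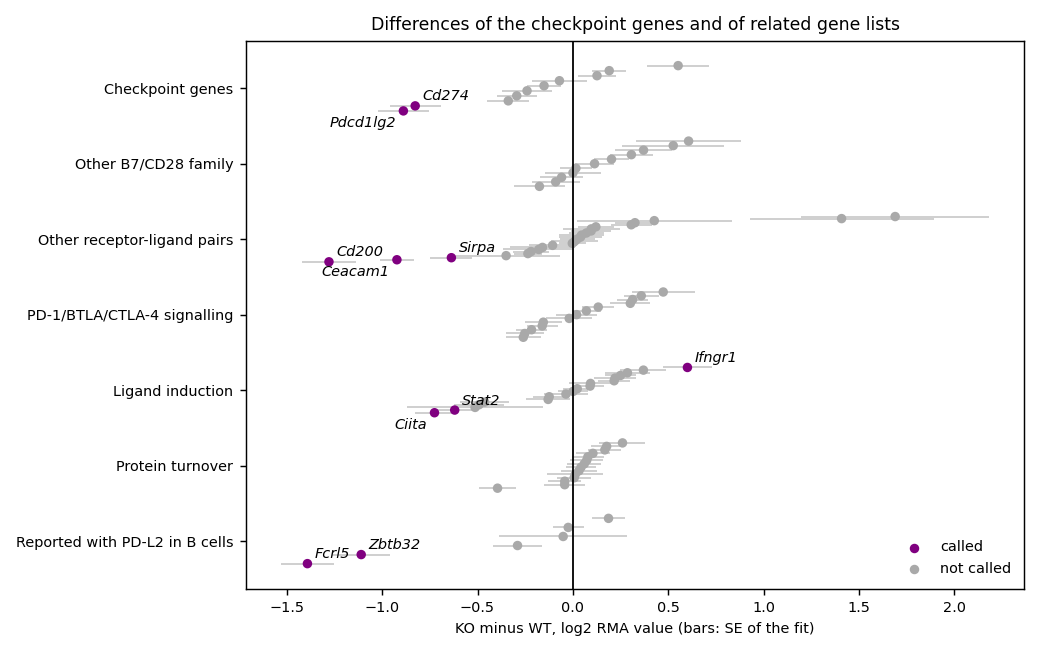
Difference of KO minus WT on the log2 scale, with the SE of the fit, for the 10 checkpoint genes and 6 related gene lists; purple points were called and grey points were not. The called genes with their names are Cd274 and Pdcd1lg2 in the top row and 8 genes of other lists, of which Ifngr1 alone is to the right of 0.

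Cd274 and Pdcd1lg2 are separated in RefSeq's gene order by 1 long non-coding RNA gene, for which no value was analysed here. The neighbours described next were chosen by position after values had been seen, and 7 of 9 were measured. Plgrkt, a plasminogen receptor gene on the other side of Cd274, stood at 6.58, 6.85, 7.29 and 6.62 in KO pools, against 7.47, 7.26, 7.36 and 7.56 in WT pools. KO pool 3 reached into the WT range, and the difference of -0.58 (SE 0.15) had adjusted p = 0.0610 in limma. Plgrkt was called lower in 4 of 17 alternatives, among them the one without KO pool 3 (adjusted p = 0.00632 in limma). The long non-coding RNA gene A930007I19Rik, beyond Pdcd1lg2, differed by -0.24 (SE 0.10). Further out, Jak2, Insl6, Rln1, Ric1 and Ermp1 all had positive differences, from 0.08 to 0.70. In the fit reported limma called 0 of the 7, with 4 at an unadjusted p under 0.05. Jak2 was called higher in 1 alternative (adjusted p = 0.0308 in limma).

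**Figure D5:**
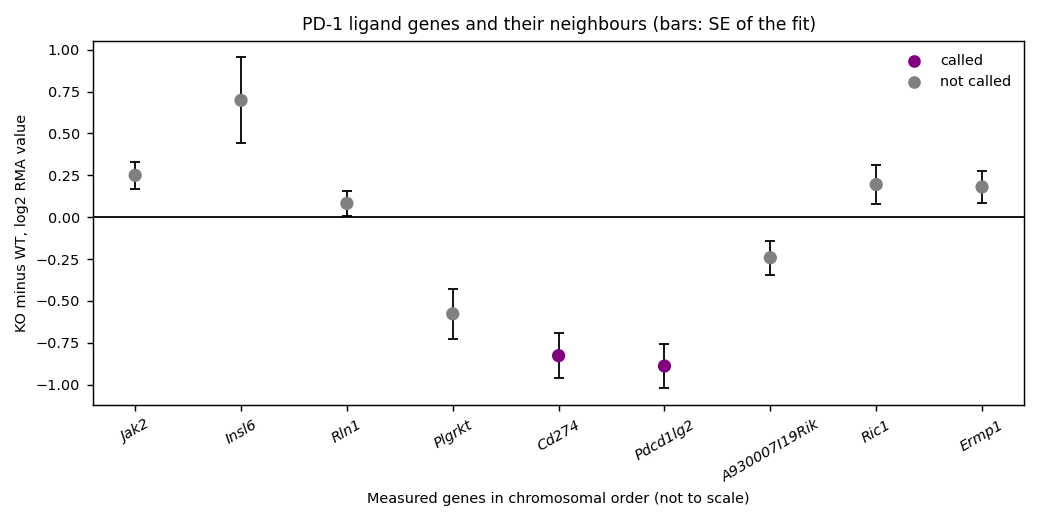
Difference of KO minus WT on the log2 scale, with the SE of the fit, for the measured genes around Cd274 and Pdcd1lg2 in chromosomal order, not to scale; purple points were called. The 4 genes from Plgrkt to A930007I19Rik lie below 0 and the 5 outer genes above it.

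The genes most like each PD-1 ligand were found by the root mean square difference between profiles over the 8 arrays, each centred on its own mean. Predicted genes, genes with clone or accession names and mitochondrial genes were left out, also from the ranks given below. Nearest to Cd274 were Siglecg, which encodes an inhibitory sialic acid receptor of B-1 cells, at 0.08 on the log2 scale, the kynurenine pathway enzyme gene Kmo at 0.12 and Gapdhs at 0.13. Siglecg averaged 8.97 ± 0.20 in KO and 9.80 ± 0.14 in WT (SD, n = 4 pools each). Its difference of -0.83 is close to that of Cd274, which follows from choosing it by its profile. Nearest to Pdcd1lg2 were the keratin gene Krt8, the renin-binding protein gene Renbp and the DNA repair gene Mgmt, at 0.13, 0.13 and 0.14. Pdcd1lg2 was 232nd in likeness to Cd274 and Cd274 was 113th in likeness to Pdcd1lg2, at a distance of 0.26. Likeness over 8 arrays is a description and was not tested.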

How the data were processed

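Per the submitters' processing notes, the log2 values were made by the authors with RMA (background correction, quantile normalization, probe summarisation) and R 3.2.2. The sources used here give no further settings. The deposited table covers 41345 probe sets. Values are relative to the other genes of an array, and with arrays the precision is limited by their number, 8.

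Probe sets with 1 symbol in the platform annotation (23521) were named, with symbols updated through RefSeq for GRCm38.p6. Per gene the probe set with the highest mean was kept, leaving 22180 genes. KO was compared with WT by limma 3.58.1 in R 4.3.3 (lmFit, eBayes, two-sided, Benjamini-Hochberg, adjusted p under 0.05), after a test on simulated data. The 10 genes, the lists (163 of 174 symbols matched, the others not analysed here) and the tests were chosen with earlier results of these data known. Named were Paxip1, the 10 genes, at most 4 genes of smallest p per list and 3 genes of nearest profile per PD-1 ligand. Other genes were named after their values were seen. Replicates are pools of mice. The 17 alternatives changed the probe set, genes tested, scaling, variance prior, moderation, weights, pairing, covariate and pools.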

Additional observations from a re-analysis of the deposited data

Results flagged for a closer look

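In a group of 4 pools, 1 pool was singled out where its gap to the nearest other pool, divided by the range of the group, exceeded Dixon's critical value. Of 168 groups checked (84 genes in each genotype) 9 did so, where chance alone gives about 1 in 20. Cd274 in KO pool 3 was 6.92, against 6.37 to 6.44 in the other KO pools. Without that pool the difference was -0.95. KO pool 3 also had the lowest T cell marker mean of the KO pools, at 5.15, and a link was not tested. Icosl in WT pool 1 was 5.06, against 4.68 to 4.71 in the other WT pools, and without that pool its difference was -0.25. Fcrl5 in WT pool 3 was 8.35, against 8.88 to 8.92, and Spi1 in WT pool 1 was 5.15, against 5.61 to 5.69. Insl6, a neighbour of Cd274, was 5.74 in KO pool 4, against 4.99 to 5.09 in the other KO pools, and 3.67 in WT pool 3, against 4.71 to 4.89 in the other WT pools. Cd47 in KO pool 1 was 10.36, against 10.26 to 10.27 in the other KO pools. In WT pool 1, Cmtm6 was 8.34, against 8.88 to 8.97 in the other WT pools, and Cpa3 was 6.999, against 3.75 to 4.14.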

How the results depend on the processing

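Of the 10 checkpoint genes, 2 (Cd274 and Pdcd1lg2) were called in 14 of 17 alternatives and 0 in 3: without variance moderation, with the T cell marker mean in the model, and without KO pools 1 and 2. Omitting any 1 pool left 2 to 2. The total of 797 called genes became 303, 298 and 320 in the same 3 alternatives and 479 to 758 on omission of 1 pool (498 without KO pool 2, and 530, 497 and 479 without WT pools 2, 3 and 4); the cause was not tested. The replicate block left 666 called genes and both checkpoint genes. Deviations of same-numbered pools correlated at 0.11, 0.04, 0.04 and 0.04, all positive, and KO pool 3 correlated best with WT pool 4 (0.10). The numbers were not taken as pairs in the fit reported. In both genotypes the T cell marker mean was higher in pools 1 and 2 than in pools 3 and 4. Whether pools of the same number share a source was not tested. With the block Cd96 was called (adjusted p = 0.0317 in limma, range 0.00877 to 0.605), as was Cd226 (adjusted p = 0.0447), and Klrb1c was not. Over 84 named genes, 1267 of 1417 values kept direction and call, 66 lost the call, 51 gained one and 33 changed sign; every sign change follows, and none was in a gene called in the fit reported. With the T cell marker mean in the model the difference was -0.096 for Cd28, -0.17 for Icos, -0.63 for Tigit, -0.0068 for Stat6, 0.061 for Ighm, 0.18 for Cd79a, 0.060 for Bhlhe41 and 0.17 for Tnfrsf14. Without KO pools 1 and 2 it was -0.011 for Icos, -0.37 for Tigit, -0.012 for Stat6, 0.00225 for Ighm, 0.14 for Cd79a, 0.041 for Bhlhe41 and 0.11 for Tnfrsf14. Ighm was at 0.48 with the mean of all its probe sets, where it was called higher in KO (adjusted p = 0.0111 in limma), and Nt5e at 0.0074 with array weights. Omission of 1 pool turned the sign of 7 genes: Lag3 (-0.19 to 0.034), Cd79a (-0.11 to 0.073), Stat6 (-0.010 to 0.047), Cmtm6 (-0.13 to 0.095), Nt5e (-0.44 to 0.23), Bhlhe41 (-0.054 to 0.013) and Cpa3 (-0.21 to 0.87). No checkpoint gene but Lag3 changed sign. Genes near the floor of the array, Pdcd1 and Lag3 among them, limit what these arrays can show.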

Other observations

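Markers of NK cells and of granulocytes and mast cells were not described above. Of 12 NK cell markers, 2 rose in KO and 0 fell. All 12 had positive differences, with a median of 0.57, and 8 had an unadjusted p under 0.05. Their mean was 5.78, 5.55, 4.49 and 4.90 in KO pools 1 to 4, against 4.42, 4.61, 4.12 and 3.78 in WT pools 1 to 4. The largest differences were 2.24 for Ccl5 and 2.02 for Klrk1, not called. Ncr1, Klre1, Gzma, Eomes and Gzmb had means below the array medians in both genotypes. Their differences were 0.04, 0.21, 0.28, 0.28 and 0.37, not called. Klrd1, a chain of lectin-like NK receptors, stood at 7.19, 6.62, 5.19 and 5.75 in KO pools, against 4.89, 4.97, 4.04 and 3.53 in WT pools. It rose by 1.83 (SE 0.42, adjusted p = 0.0387 in limma, 0.00234 to 0.238 over its alternatives), and its call was lost in 10 of 17 alternatives. Klrb1c, which encodes NK1.1, rose by 0.73 (SE 0.17, adjusted p = 0.0362 in limma), a call lost in 9. With the T cell marker mean added to the model the differences were 0.66 for Klrd1 and 0.59 for Klrb1c. The part of T cells in the NK cell marker values was not tested. Granulocyte and mast cell markers averaged 3.03 to 3.21 in KO pools and 2.90 to 3.41 in WT pools, and limma called 0 of 12, with 1 at an unadjusted p under 0.05. WT pool 1 held the highest value of the mast cell protease gene Cpa3, at 6.999, against 4.13, 3.75 and 4.14 in the other WT pools and 4.50 to 5.48 in KO pools. The same pool was the highest of the WT pools for Icosl, Cd86 and Btla, and for the macrophage marker mean. A link between these values was not tested.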
